A study of Mus musculus with 2 samples.

Results

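The neural type RNA binding proteins are a group of 9 genes, Celf3, Celf4, Celf5, Celf6, Elavl2, Elavl3, Elavl4, Nova1 and Rbfox1, read here in the pancreas of newborn mice with and without a working Glis3 gene. Glis3 encodes a zinc finger transcription factor that beta cells need. Members were found by taking every probe whose accession, symbol, older symbol or clone name led to one of the 9 genes. This gave 10 probes of 8 genes out of 41174 probes and 18110 named genes on the array. No probe matched Nova1. Celf5 was matched only through a clone name that is its older symbol. The group was chosen by values of this same comparison, so its ratios are a description and carry no test.

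The mutant mice were homozygous for the Glis3zf allele (Glis3zf/zf, also called Glis3KO), and the controls were wild type at Glis3. Each pool held RNA of 2 pups at postnatal day 3 and came from whole pancreas, so acinar, duct, vessel, nerve and islet cells all contributed RNA. Both pools were hybridised to 2 two-colour arrays with the dyes exchanged, which makes 1 sample per genotype and a technical repeat. The spread given below is that between arrays, no value has a check across animals, and no p-value was computed. The first array below carries the mutant pool in Cy5, the second carries it in Cy3. Each ratio is the log2 of the mutant signal over the wild-type signal, averaged over the arrays, and values under 0 mean less signal in the mutant.

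RNA binding proteins of this kind are best known from neurons. CELF proteins bind GU-rich stretches and steer splicing, translation and decay, and Celf3 to Celf6 are the members of that family found mainly in the nervous system. The neuronal ELAV (Hu) proteins Elavl2, Elavl3 and Elavl4 bind AU-rich stretches and stabilise messages or alter their processing. Nova1 and Rbfox1 are splicing factors of neurons, and Rbfox1 also acts in striated muscle. Endocrine cells of the islet share with neurons regulated exocytosis and a set of neuronal splicing factors.

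The promoter windows of the 2 members with the lowest ratios are shown so that their start regions can be compared. They come from RefSeq (GRCm38.p6), run from 250 bases before to 50 bases after an annotated start, and are the most upstream of 7 windows of Celf3 and of 4 windows of Elavl4. Capitals mark CG dinucleotides. The first lies at chr3:94478045-94478344 on the plus strand and the second at chr4:110351862-110352161 on the minus strand.
Celf3: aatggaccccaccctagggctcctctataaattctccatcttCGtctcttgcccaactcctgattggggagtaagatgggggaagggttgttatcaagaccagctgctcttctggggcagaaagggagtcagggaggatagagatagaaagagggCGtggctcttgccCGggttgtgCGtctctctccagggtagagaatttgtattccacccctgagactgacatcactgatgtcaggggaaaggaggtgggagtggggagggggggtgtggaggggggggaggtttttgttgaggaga
Elavl4: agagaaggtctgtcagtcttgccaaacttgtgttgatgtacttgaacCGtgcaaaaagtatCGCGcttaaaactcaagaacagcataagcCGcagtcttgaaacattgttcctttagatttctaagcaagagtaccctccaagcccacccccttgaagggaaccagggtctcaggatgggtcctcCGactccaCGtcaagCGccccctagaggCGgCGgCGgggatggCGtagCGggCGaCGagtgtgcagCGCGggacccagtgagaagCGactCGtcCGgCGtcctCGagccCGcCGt
The Celf3 window held 4 CG dinucleotides at a GC content of 55.0%. The Elavl4 window held 23 at a GC content of 57.0%. The median over all 32851 windows was 7 CG dinucleotides and 52.7% GC. This contrast holds for the most upstream windows and turns round for most other starts: the other 3 windows of Elavl4 held 4 to 6 CG dinucleotides, and 5 of the other 6 windows of Celf3 lay above the median.

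A set of 4 letter strings was searched on both strands in the 28 windows of the 8 members that had one, Nova1 included. Celf4 had no window and was not searched. Several windows of a gene overlap and can hold the same site, so counts are also given per gene. The shares of all windows are per window, and no share per gene was computed. Genes with more windows have more chances of a match. TGGGGGGT, a core of the Glis factor binding site, was found in 1 window, of Celf5, and in 1.53% of all windows. CAGATG, an E-box read by neuroendocrine basic helix-loop-helix factors, was found in 6 windows of 2 members, Celf3 and Elavl4, and in 17.2% of all windows. The Celf3 windows with this string overlap and hold the same site, as do windows 2 and 3 of Elavl4, counted from the most upstream. Of a pair of strings from the site of the neuronal gene repressor Rest, AGCACC was found in 3 windows of Celf5 and Elavl4 (16.2% of all windows). The Elavl4 matches, in its windows 2 and 3, are again the same site. The other string, GGACAG, was found in 6 windows of Celf3, Celf5, Celf6 and Elavl2 (22.2% of all windows). None of the 4 strings was found in the windows printed above. A match is a string of letters and not a bound site.

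Celf3 was the member that differed most. It was 2.24-fold lower in the mutant pool. Its single probe (NM_172434, plus strand of chromosome 3, 93979893 to 93979951 in the files' own coordinates, for which no build is stated in the sources used here) gave mean spot signals of 213.1 for the mutant against 617.5 for the wild type on the first array. On the second array the signals were 230.4 for the mutant against 497.2 for the wild type. Wild type was thus the brighter channel in both dyes. That raw order alone says little, since Celf5, Celf6 and Rbfox1 also showed it with ratios near 0. After normalisation the ratios were -1.25 and -1.08, with a mean of -1.16 and a half-range (the distance of either array from the mean) of 0.08. The technical SD of a mean ratio at this brightness was 0.08. Celf3 ranked 29 from the lowest of the 38864 probes that were well above background.

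By the rule of size used here, a probe is lower when its mean ratio is at least 1.5-fold down with at least 1.2-fold on each array. Celf3 was the 1 of 10 member probes that passed, and 0 passed in the higher direction. Over all probes 0.389% were lower by that rule. Celf3 also passed a rule of 2-fold with 1.5-fold on each array, which 0.0952% of all probes passed in the lower direction. Just outside the first rule stood the brighter Elavl4 probe, 1.45-fold lower. Since the members were chosen on this contrast, nothing is read from their share.

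**Figure D1:**
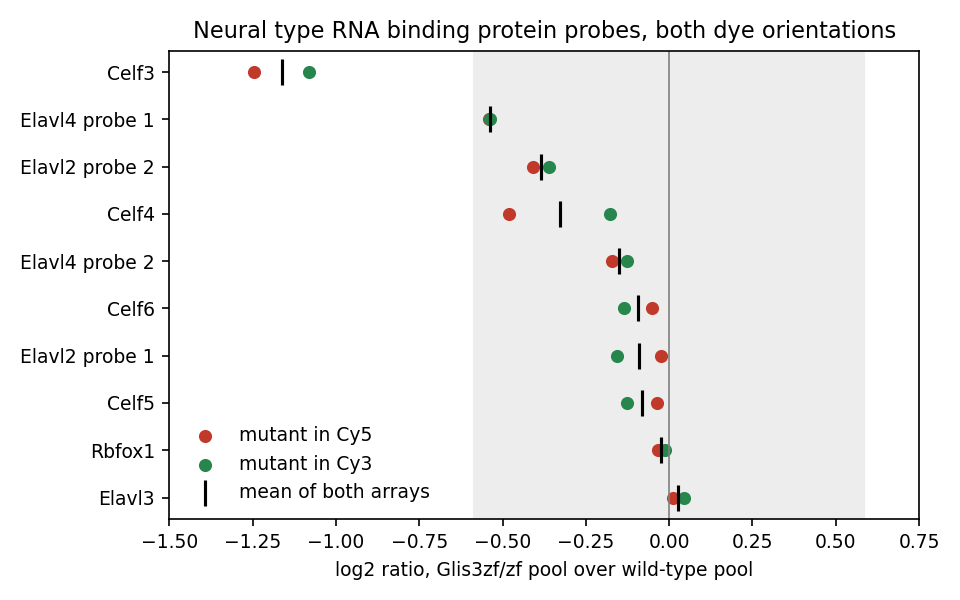
Log2 ratio of the Glis3zf/zf pool over the wild-type pool (horizontal axis) for the 10 member probes, ordered by mean ratio; red points are the array with the mutant in Cy5, green points the array with the mutant in Cy3, bars their mean, and the grey band spans 1.5-fold either way. Celf3 lies outside the band on both arrays at -1.25 and -1.08, the 2 arrays of Celf4 lie farthest apart, and the Elavl3 points alone lie above 0.

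The other neural CELF genes gave smaller ratios. Celf4, a neuronal factor that limits excitability by acting on synaptic messages, had signals of 234.3 for the mutant against 403.0 for the wild type with the mutant in Cy5. With the dyes exchanged they were 251.4 and 288.2. The mutant was the dimmer channel on both arrays, by unequal amounts: the ratios were -0.48 and -0.18, with a mean of -0.33 and a half-range of 0.15. That mean was 1.26-fold lower, and 2.03% of all probes were as low or lower.

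Celf5 and Celf6 lay near 0. Celf5 (clone AK029796) gave signals of 112.3 for the mutant against 151.3 for the wild type on the first array and 158.8 and 163.9 on the second, for ratios of -0.04 and -0.13. Celf6 (NM_175235) gave 207.8 and 271.4 on the first array and 208.6 and 227.3 on the second, for ratios of -0.05 and -0.14. Their means of -0.08 and -0.09 were about as large as the technical SD of 0.08 at their brightness, so neither stood clear of array noise. Among the 4 neural CELF genes the order of mean ratios was thus Celf3, Celf4, then Celf6 and Celf5, which were not separated from each other.

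Among the neuronal ELAV genes, Elavl4 was the lowest. Elavl4 encodes HuD, which in beta cells is known to bind the Ins2 message. Its brighter probe (NM_010488, minus strand of chromosome 4, 109165076 to 109165135) gave 119.6 for the mutant against 226.0 for the wild type on the first array. On the second array it gave 138.4 and 187.4. The wild type was brighter in both dyes, and the ratios of -0.54 and -0.54 differed by less than the rounding, with a half-range of 0.002. The mean of -0.54 compares with a technical SD of 0.07, and 0.517% of all probes were as low or lower.

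The dimmer Elavl4 probe (109170484 to 109170543 on the same strand) lies 5408 bases away. It gave 80.23 for the mutant against 119.1 for the wild type on the first array, and 84.93 and 79.64 on the second. Its raw signals therefore changed order with the dye, at a level not far above the local background of 46 to 50. Its normalised ratios were -0.17 and -0.13, with a mean of -0.15, which is 0.39 less negative than that of the brighter probe. Both Elavl4 probes point the same way and disagree in size.

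Elavl2, which encodes HuB, also had a pair of probes that disagreed, 1007 bases apart on chromosome 4. Probe 1 (NM_207685, minus strand, 90227800 to 90227859) gave 267.1 for the mutant against 337.1 for the wild type on the first array and 235.5 and 262.8 on the second. Probe 2 (90226793 to 90226852) gave 199.1 and 329.1 on the first array and 176.8 and 221.0 on the second. The mutant was dimmer in all 4 raw pairs. On the first array, though, the wild-type channel was brighter over the whole array (a median of 265.0 against 208.2). Probe 1 had ratios of -0.02 and -0.16 (mean -0.09, technical SD 0.07), while probe 2 had ratios of -0.41 and -0.36 (mean -0.39, half-range 0.03, 1.31-fold lower). Probe 2 lies nearer the end of the gene in the direction of transcription, and 1.32% of all probes were as low or lower.

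Elavl3, which encodes HuC, was the only member above 0 on both arrays by the normalisation used here. Its probe (NM_010487) gave 111.7 for the mutant against 146.1 for the wild type with the mutant in Cy5, and 123.4 and 109.4 with the mutant in Cy3. The Cy3 channel was brighter on both arrays whichever genotype it held. After normalisation the ratios were 0.01 and 0.04, with a mean of 0.03, within the technical SD of 0.08. The scanner software's ratios were 0.06 and -0.01. A brighter clone probe described as an Elavl3 product, outside the naming of the members, read -0.15 and 0.00.

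Rbfox1 differed between the pools by less than the technical SD. Its probe (NM_021477) gave 216.8 for the mutant against 282.0 for the wild type on the first array, and 270.1 and 277.1 on the second. The ratios were -0.03 and -0.01, with a mean of -0.02 against a technical SD of 0.07. Rbfox1 is also a muscle gene, and skeletal muscle genes were higher in the mutant pool. Of 18 measured muscle genes, 10 were at least 1.5-fold higher and 0 lower, with a median ratio of 0.98 (0.502% of all genes were higher by that rule). They were Myl1 (4.46), Tnnc2 (3.60), Mylpf (3.45), Myh8 (3.29), Acta1 (3.22), Tnni2 (3.19), Myh7 (2.04), Tnnt3 (2.00), Ckm (1.37) and Mybpc1 (0.59). The other 2 Myh8 probes read 0.06 and 0.10, and the dimmer Atp2a1 probe passed at 0.70 while its brighter one, at 0.26, did not. The part of muscle RNA in the Rbfox1 value was not tested.

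**Figure D2:**
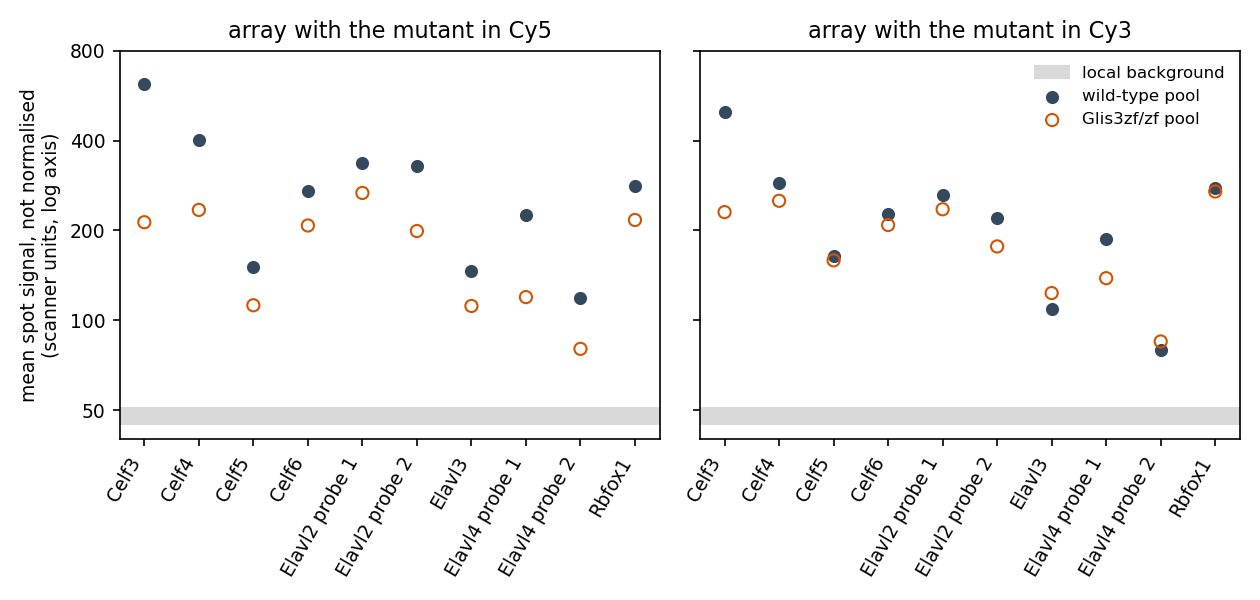
Mean spot signal before normalisation (vertical log axis, scanner units) of each member probe in the wild-type pool (filled) and the Glis3zf/zf pool (open), with the array carrying the mutant in Cy5 on the left and the array carrying it in Cy3 on the right; the grey band is the local background of these spots. All member spots lie above the background, and the wild type exceeds the mutant for Celf3 on both arrays while the Elavl3 pair changes order with the dye.

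All 10 member probes were well above background in all 4 channels by the scanner software's flag, and none was saturated. Their signals lay between 79.64 and 617.5, against channel medians between 207.0 and 265.0 over the whole array. On the first array the wild-type channel was brighter overall (a median of 265.0 against 208.2), so raw signals there lean toward the wild type before normalisation. The members were thus of low to middling brightness, where the added offset of 50 draws ratios toward 0. Levels were not compared between genes, because each probe has its own affinity.

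Of the 10 probes, 9 were below 0 on both arrays and 1 (Elavl3) was above 0 on both. Over all probes 30.4% were below 0 on both arrays. Read by gene from the brightest probe, 7 of 8 members were below 0 on both arrays, against 30.5% of 17743 genes. The median ratio of the 8 genes was -0.09 (-0.04 on the first array and -0.15 on the second), and the median over all genes was 0.004. Most of these negative values were small: 5 of the 10 probes lay within 0.15 of 0 and 4 lay below -0.3. The group therefore divided into Celf3, which was lower by the rule, a set of Elavl4 probe 1, Elavl2 probe 2 and Celf4 with smaller values, and the remaining 6 probes between -0.15 and 0.03. Of these last, Elavl4 probe 2 depends on the offset: it read -0.39 with none and -0.48 by the scanner software's ratio.

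**Figure D3:**
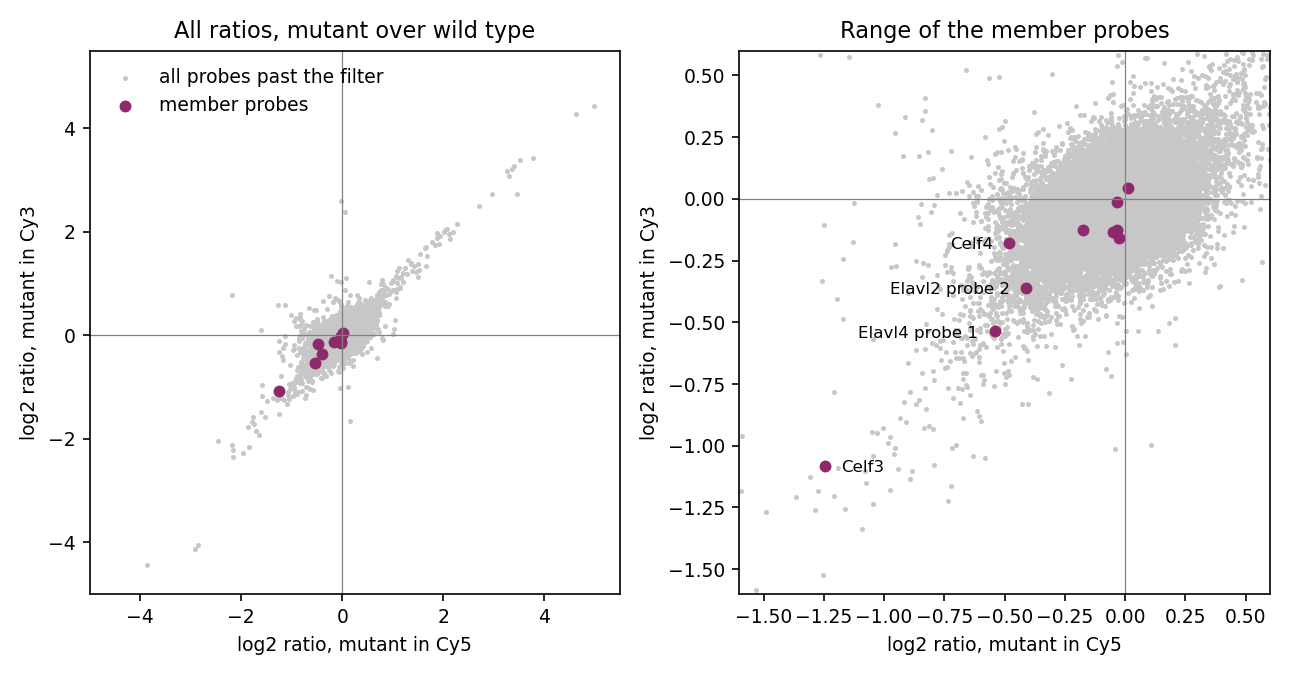
Log2 ratio of mutant over wild type with the mutant in Cy5 (horizontal axis) against that with the mutant in Cy3 (vertical axis) for all 38864 probes well above background (grey) and the 10 member probes (purple); the left plot shows nearly the whole range and the right plot the range of the members. Celf3 sits at the edge of the cloud and Elavl4 probe 1 on the diagonal at -0.54, while 5 member probes lie within 0.15 of 0.

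The genes of the same families that are expressed widely did not pass the rule. Celf1 had a mean ratio of -0.17 and Celf2 of 0.07. Elavl1, which encodes the ubiquitous HuR, had a mean of 0.02. Rbfox2, the widely expressed relative of Rbfox1, had a mean of -0.06. The median of these 4 relatives was -0.02, with 0 of 4 at least 1.5-fold lower (0.519% of all genes were lower by that rule).

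Other neural RNA binding proteins did not pass it either, with 0 of 8 measured genes lower or higher and a median of -0.01. Srrm3 and Srrm4, which drive the inclusion of neural microexons and are shared with islet cells, had mean ratios of 0.19 and 0.19, above 0 on both arrays. The second Srrm4 probe was not well above background in any channel. Khdrbs3 stood lowest at -0.20, followed by Ptbp2, the neural polypyrimidine tract binding protein, at -0.14. Rbfox3, the neuronal nuclear antigen NeuN, was at -0.05. No probe matched Nova2.

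Among 28 further splicing regulators, 0 passed 1.5-fold when read from the brightest probe. Their median was -0.11 (-0.16 on the first array and -0.05 on the second), and 13 of 28 were below 0 on both arrays. Srsf5, a serine/arginine-rich splicing factor, was lowest at -0.44, and Tra2b followed at -0.26. The dimmer Tra2b probe, at -1.20 and -0.41 on the arrays with a mean of -0.80, passed the rule as lower. Ptbp1, which holds back neuronal exons in other cells, was at 0.01.

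Rest, the repressor that keeps neuronal genes silent in other tissues, and its cofactors gave 0 of 7 genes past 1.5-fold and a median of -0.03. The brightest Rest probe read -0.20 and 0.08 on the 2 arrays, with a mean of -0.06, and its other probes had means of -0.17 and 0.13. Its 3 probes therefore gave no common direction. Rcor2 was highest at 0.12 and Rcor1 lowest at -0.07.

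Among 7 messages known from other work to be bound by Elavl4, 1 was at least 1.5-fold lower, Ins2, whose wild-type spots were saturated on both arrays, so no fold is given for it here. Ins2 is also a beta cell hormone gene. Cdkn1a, a cell cycle inhibitor, was at 0.36, and Gap43, a growth cone protein and classical HuD target, at -0.26. The median was -0.08.

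The marker lists of the cells that could supply these messages differed widely. Of 20 pan-endocrine genes, 7 were at least 1.5-fold lower and 0 higher, with a median of -0.50 and 19 below 0 on both arrays. Those 7 were Chga (-1.73), Scgn (-1.14), Pcsk2 (-1.08), Scg5 (-1.05 and -0.94 on the arrays), Isl1 (-0.99), Scg2 (-0.72) and Resp18 (-0.62). The call by the rule differed between probes for Pcsk2, whose dimmer probe read -0.26. It also differed for Mlxipl, at -0.18 on its brighter probe and -0.65 on the dimmer one, which passed the rule. Some probes disagreed without a change of call. Pax6 read -0.30 on its brighter probe and 0.05 on the dimmer one, which was above 0 on both arrays. Pcsk1 read -0.505 and -0.09. Chgb, a secretory granule protein, stood at 0.33 on the other side. Of 8 islet hormone genes, 7 were lower and Iapp missed the rule at -0.51. The 7 were Ppy (-2.15), Ghrl (-2.12), Sst (-1.84 and -2.16 on the arrays), Gcg (-1.21), Pyy (-1.01) and both insulin genes, which had saturated wild-type spots and are given no fold. The summed raw signal of the pan-endocrine list was 30661 for the mutant against 53409 for the wild type on the first array, and 25830 against 45672 on the second. This sum leans on bright genes, since Chga alone read 4916 and 18370 on the first array. The wild-type channel of that array was also brighter over all probes (a median of 265.0 against 208.2). Its raw sum was lower for the synaptic list (12677 against 19519), where Syt13 alone read 1186 and 5175. It was lower too for the splicing regulators (48099 against 65731), whose median ratio was -0.11. For the muscle list it was higher (31388 against 12789).

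Nerve markers gave smaller ratios. Of 17 autonomic neuron genes, 0 passed 1.5-fold in either direction, 10 were below 0 and 5 above 0 on both arrays, and the median was -0.08. Nefh, a neurofilament, was lowest at -0.32, and the neuropeptide gene Vip was at -0.31. Dbh, which makes noradrenaline, was at 0.09. Schwann and glial genes had 0 of 11 past 1.5-fold and a median of -0.04, with S100b at -0.42 and Fabp7 at -0.36. All measured genes of these lists were well above background, and their part in the member values was not tested.

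Of 22 synaptic and neuronal genes that islets share, 1 was at least 1.5-fold lower, Syt13, with a mean of -1.83 on its brighter probe and 0.03 on its other probe. The list median was -0.06. Stmn2, a neuronal microtubule regulator, was at -0.41. Celf3 lay below every gene of this list except Syt13 and below every gene of the autonomic list. By mean ratio it likewise lay below every pan-endocrine gene except Chga (-1.73). Scgn (-1.14) and Pcsk2 (-1.08) were not separated from it. On the second array they read -1.09 and -1.18, against -1.08 for Celf3.

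For Celf3 the genes with the nearest pair of array ratios were sought among the 77 measured genes of the pan-endocrine, synaptic, autonomic neuron and skeletal muscle lists. The nearest was Scgn, which encodes the calcium binding protein secretagogin, with ratios of -1.19 and -1.09 at a distance of 0.06. Next were Scg5, which encodes the chaperone 7B2, at 0.24, and Isl1, an islet and neuron transcription factor, at 0.28. When the genes of all lists were searched instead, a choice made after seeing the data, the acinar gene Ctrl (0.19) and the hormone gene Gcg (0.19) came between Scgn and Scg5. The choice of the first lists all but fixed a pan-endocrine neighbour. The lowest autonomic gene stood at -0.32 and the lowest muscle gene at -0.21, and only Syt13 passed the rule among the synaptic genes. Nothing about the origin of the Celf3 signal is therefore read from the search. The likeness also rests on only 2 arrays of the same pools. In whole pancreas, fewer cells of a type and less RNA per cell cannot be told apart, and this holds for each lower value given here.

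**Figure D4:**
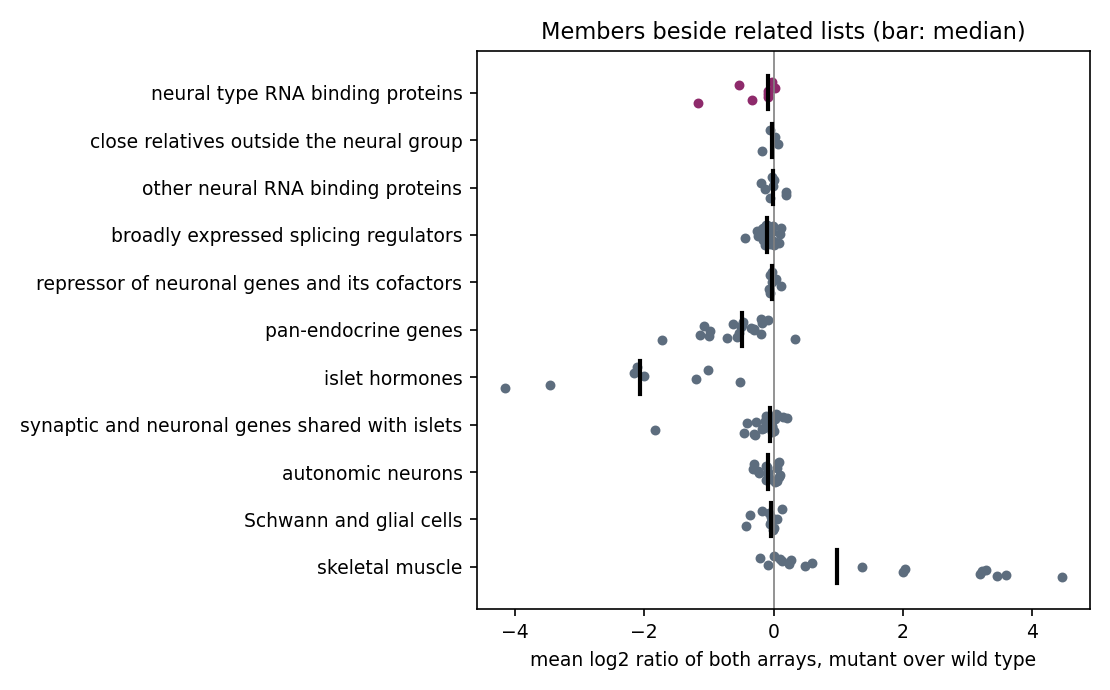
Mean log2 ratio of mutant over wild type (horizontal axis) of each measured gene in the neural type RNA binding protein group (purple) and in 10 other lists (grey), with a black bar at each list's median; the small vertical spread of points only separates them. Celf3 at -1.16 stands apart from the other members, with only Syt13 lower among the synaptic genes. Among the pan-endocrine genes only Chga is clearly lower, and Scgn (-1.14) and Pcsk2 (-1.08) are not separated from Celf3. The pan-endocrine median is -0.50, and the autonomic neuron points lie between -0.32 and 0.10.

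The other cell type lists gave these medians. Acinar genes had -0.22 over 9 genes, with 8 further genes saturated everywhere and left out. Among them Ctrl (-1.11), Rbpjl (-0.85) and Rnase1 (-0.62 on its unsaturated probe) were lower and Gp2 (1.93) was higher. Duct genes had 0.14 with Onecut1 at 0.89, endothelial genes -0.30 with Flt1 at -0.55 and Egfl7 at -0.42, myeloid genes 0.30 with Lyz2 at 0.86 (0.48 on its dimmer probe) and Lyz1 at 0.85, and mesenchyme 0.19 with Des at 0.64. Over the 38864 probes the arrays' ratios correlated with r = 0.63 and rho = 0.37 across probes, which are not independent, and 96.0% of mean ratios lay within 0.3 of 0. The Glis3 probe read -0.02 and 0.01; the sources used here do not say whether it lies in the altered part of the allele, so it does not check the labels.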

How the data were processed

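Per the labels, 500 ng of total RNA was labelled per dye, and 750 ng of each cRNA was hybridised for 17 h. The deposited scanner files hold mean spot and local background intensity on a linear scale, not normalised, and, per the file headers, a log10 ratio of processed signals. The submitters' processing notes name Agilent Feature Extraction 7.5 and Rosetta Resolver 6.0, whereas the headers record 8.5.1.1. The authors' deposited series table holds log2 ratios that matched the software's ratio.

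Here intensity was corrected with limma 3.58.1 (R 4.3.3; normexp, offset 50) and normalised by loess within each array. Control spots had weight 0, and 15 and 53 outlier spots were left out. Spots of a probe were averaged, and the mean of the arrays was taken once each ratio had the mutant on top. Probes passed when well above background for at least 1 genotype on both arrays. The brightest unsaturated probe stood for its gene. Probes were named through RefSeq symbols (GRCm38.p6): 22072 by accession, 142 by another accession, 663 by symbol, 656 by older symbol and 2450 by clone name, with 15191 unnamed. Named genes were all members, the relatives and regulators given above, and the 3 genes nearest to Celf3. List genes past 1.5-fold, or otherwise the 2 farthest from 0, were named too. Dbh, Stmn2, Chgb, Mlxipl, Pax6, Pcsk1, Atp2a1, Cdkn1a, Gap43 and Iapp were added after their values were seen. The technical SD came from the difference between arrays in 10 brightness classes. Python 3.11.15, numpy 2.4.6, pandas 2.3.3 and matplotlib 3.10.9 were used, and the fit was tested on simulated data. In that test no probe as dim in Cy5 as those of Celf5, Elavl3 and Elavl4 carried a set ratio. It therefore does not cover them. The members and lists were chosen with earlier results of these data known. The number of arrays limits the precision.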

Additional observations from a re-analysis of the deposited data

How the results depend on the processing

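With 1 pool per genotype, nothing here is checked across animals. Celf3 passed the 1.5-fold rule in every setting tried, with mean ratios between -1.41 and -1.08 over 8 settings. Member probes lower by the rule were 2 (Celf3 and Elavl4 probe 1) with normexp offset 0, with the scanner software's ratio and with the deposited series table, against 1 in the other settings. Elavl4 probe 1 ranged from -0.88 to -0.54 and probe 2 from -0.48 to -0.10. The larger values came without the offset, which by construction shrinks dim ratios. Over all probes 151 were lower and 117 higher; these became 304 and 193 with offset 0, 365 and 218 with the software's ratio, 365 and 221 with the series table, and 37 and 55 under the 2-fold rule. Single arrays gave 152 to 272 lower and 135 to 154 higher, the 272 without the array carrying the mutant in Cy3. The median of the members was -0.17 when each gene was read as the median of its probes, and -0.15 to -0.04 on single arrays. No mean ratio of a member and no list median changed sign, though Elavl3 read -0.01 on the second array by the scanner software's ratio. No paired analysis was possible because both arrays hold the same pair of pools.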

Other observations

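A pair of clone probes fell outside the naming of the members but are described in the files by a related product. The probe of a clone described as an Elavl3 product read -0.15 and 0.00 on the arrays (mean -0.07), with signals of 395.6 for the mutant against 538.4 for the wild type on the first array and 375.9 and 396.0 on the second. The probe of a clone described as similar to human CELF5 read 0.04 and -0.07 (mean -0.02), with signals between 70.41 and 88.9. Neither passed the 1.5-fold rule.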
